A study of Bos taurus with 21 samples.

Results

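Aminoacyl-tRNA synthetases attach each amino acid to its transfer RNA, and the transcripts of these enzymes were followed here in the muscle of cattle foetuses. The list held 38 genes, namely 19 cytosolic enzymes, 16 mitochondrial enzymes and 3 scaffold proteins of the multi-synthetase complex. They were picked by name from the 12538 genes that the array names. No measured value entered the rule, but earlier results of these data were known when the list was made. Of the 38, 32 had a named probe (18 cytosolic, 11 mitochondrial and 3 scaffold) and 31 passed the filter on low values. *VARS1*, *EARS2*, *LARS2*, *PARS2*, *VARS2* and *YARS2* had no named probe. *CARS1* was under the filter, although its probe was well above background on 21 of 21 arrays, and its values come from a fit of all probes. Each gene was read at its brightest probe.

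The study compared muscle of 2 beef breeds, Blonde d'Aquitaine (BA) and Charolais (CH), at 110, 180, 210 and 260 days post conception (dpc), with 1 single-colour array for each foetus. BA is a heavily muscled breed in which a mutation of the growth inhibitor myostatin is common, but these BA foetuses were not genotyped for it. The 10 BA foetuses numbered 3, 2, 3 and 2 over the successive stages and the 11 CH foetuses 2, 3, 3 and 3. Foetuses were sired by artificial insemination from 2 sires in each breed and were of both sexes, with 3 males in BA and 5 in CH. At 260 dpc both BA foetuses were female, whereas 2 of the 3 CH foetuses (replicates 1 and 2) were male and replicate 3 was female. Both BA foetuses of 260 dpc also came from 1 of the 2 BA sires, so that breed and sire cannot be told apart there on the BA side, whereas the CH foetuses came from both CH sires. The labels name the muscle as Longissimus thoracis, whereas the study's methods name *m. Semitendinosus*. All 8 of the skeletal muscle markers listed (*ACTA1*, *DES*, *CKM*, *MYH3*, *MYH8*, *MYH1*, *TNNT3* and *MYOG*) were well above background on every array, and these markers do not separate the muscles. Between 29017 and 34502 probes were well above background on an array. RNA came from whole muscle, in which fewer cells of a type and less RNA per cell cannot be told apart.

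The cytosolic enzymes serve the ribosomes that make most cellular protein, contractile protein included. The mitochondrial enzymes are encoded by separate nuclear genes and charge the tRNAs that read the mitochondrial genome, whose few protein products are subunits of the respiratory chain and the ATP synthase. *GARS1* and *KARS1* are exceptions, since each encodes the enzyme of both compartments. *EPRS1* charges glutamate and proline, and *FARSA* and *FARSB* encode the alpha and beta subunits of the cytosolic phenylalanine enzyme. Several cytosolic enzymes are assembled with the scaffold proteins *AIMP1*, *AIMP2* and *EEF1E1* into a large complex. Many cytosolic synthetase genes, but not all, are known targets of ATF4, the transcription factor of the response to amino acid shortage.

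Values below are normalised log2 intensities, in which 2.69 is the 75th percentile of every array, so that a difference of 1 is a doubling. Differences are given ± SE from a limma fit across 20132 probes. A gene rose or fell where its Benjamini-Hochberg adjusted p was under 0.05 over all of these probes.

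From 110 to 260 dpc, with the breeds averaged, 21 of the 31 genes tested rose and 1 fell. Among all 7930 named genes that were tested, 33.8% rose and 31.5% fell. The median difference of the 31 genes was 0.33, against 0.03 for all named genes. Of the cytosolic enzymes 13 of 17 rose and 1 fell (median 0.37), of the mitochondrial enzymes 5 of 11 rose (median 0.20), and 3 of 3 scaffold genes rose (median 0.67). Without the 2 male CH foetuses of 260 dpc, a setting chosen after seeing the data, the medians of the cytosolic and mitochondrial enzymes were alike, at 0.249 and 0.248. The 5 foetuses of 260 dpc lay above the 5 of 110 dpc without overlap in 11 of the 31 genes, compared with 26% of named genes, and below them in 0, compared with 23.5%. The count of 22 calls was 13 without BA replicate 2 of 260 dpc and also 13 without CH replicate 1 of 110 dpc. On the deposited values, which were not scaled between arrays, the median of all named genes was -0.36 and that of the 31 genes -0.06, so that 10 of the smaller rises had a sign below 0 there (*CARS2*, *EPRS1*, *HARS1*, *IARS1*, *NARS2*, *RARS1*, *RARS2*, *TARS2*, *WARS1* and *YARS1*).

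**Figure D1:**
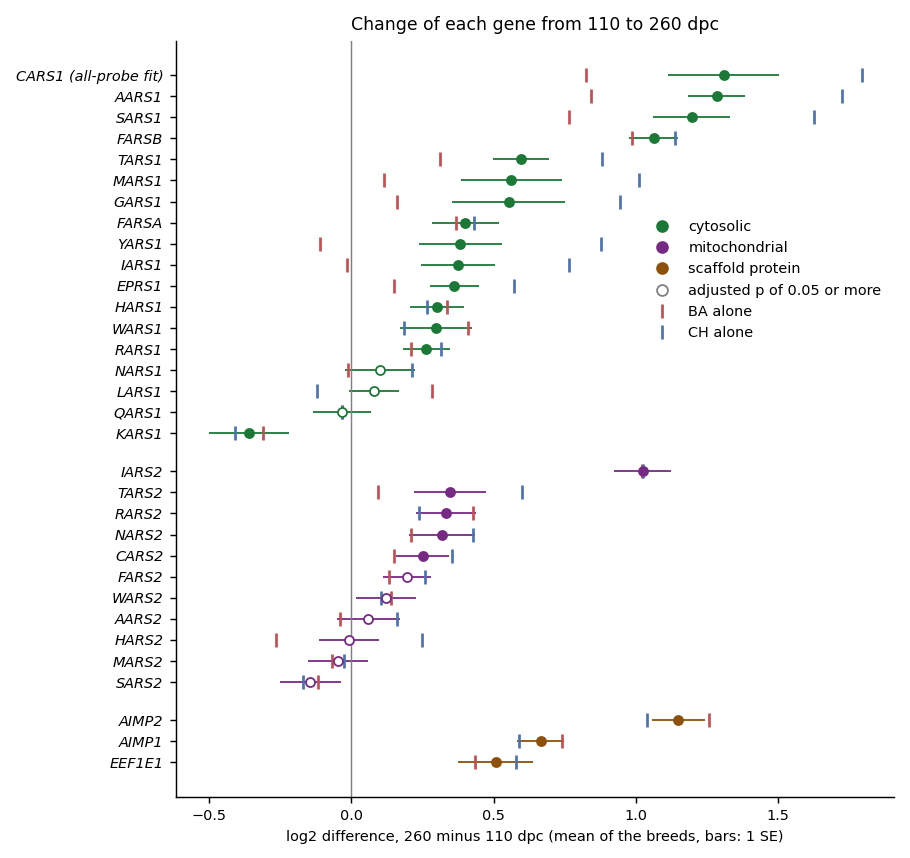
Difference between 260 and 110 dpc of each gene (log2, x axis), as the mean of the breeds with 1 SE. Filled points passed an adjusted p of 0.05, and the ticks give BA and CH alone. *CARS1*, drawn from the fit of all probes, lies highest at 1.31. *AARS1*, *SARS1*, *FARSB*, *IARS2* and *AIMP2* also lie above 1, most mitochondrial enzymes lie between -0.14 and 0.35, and *KARS1* lies at -0.36.

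The largest rises among the cytosolic enzymes tested were those of *AARS1*, *SARS1*, *FARSB*, *TARS1* and *MARS1*. *AARS1*, the alanine enzyme, was at 6.06, 6.10 and 5.97 in the BA foetuses and 6.09 and 5.93 in the CH foetuses of 110 dpc. At 260 dpc it was at 6.84 and 6.93 in BA and at 7.63, 8.10 and 7.47 in CH. The stages did not overlap, and the averaged difference was 1.28 ± 0.10, or 2.44-fold (limma, adjusted p = 6.7e-09). *SARS1*, the serine enzyme, was between 4.66 and 5.09 in the 5 foetuses of 110 dpc. It reached 5.64 and 5.60 in BA and 6.33, 6.98 and 6.11 in CH at 260 dpc, again without overlap. Its difference was 1.20 ± 0.14, or 2.29-fold (limma, adjusted p = 6.38e-07).

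*FARSB* differed from these enzymes in that the breeds ended at similar levels. It was at 5.81, 5.99 and 6.14 in BA and 6.11 and 5.87 in CH at 110 dpc, and at 6.91 and 7.03 in BA and 7.0, 7.19 and 7.19 in CH at 260 dpc. The difference was 1.06 ± 0.09 (2.09-fold, limma adjusted p = 1.11e-08), and its other probes gave 1.04 and 1.16. *FARSA*, which encodes the partner subunit, rose by 0.40 ± 0.12. *TARS1*, the threonine enzyme, was at 4.05, 4.04 and 3.68 in BA and 4.07 and 4.08 in CH at 110 dpc. At 260 dpc it was at 4.14 and 4.33 in BA and 4.96, 5.20 and 4.70 in CH, an averaged rise of 0.60 ± 0.10. *MARS1*, the methionine enzyme, overlapped between the stages, being between 1.21 and 1.79 at 110 dpc and at 1.44, 1.91, 2.74, 2.68 and 1.78 at 260 dpc. Its rise was 0.56 ± 0.18 (limma, adjusted p = 0.0107). *CARS1*, the cysteine enzyme, lay between -0.38 and 0.03 at 110 dpc. It was at 0.31 and 0.95 in BA and 1.61, 2.33 and 1.26 in CH at 260 dpc. In the fit of all probes its difference was 1.31 ± 0.20 (adjusted p = 4.5e-05).

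The other cytosolic enzymes that rose were *GARS1* (0.55 ± 0.20), *YARS1* (0.38 ± 0.15), *IARS1* (0.37 ± 0.13), *EPRS1* (0.36 ± 0.09), *HARS1* (0.30 ± 0.09), *WARS1* (0.30 ± 0.13) and *RARS1* (0.26 ± 0.08). In female foetuses alone *GARS1* (0.24), *YARS1* (0.22) and *IARS1* (0.12) did not pass, nor did they without the 2 male CH foetuses of 260 dpc (0.18, 0.12 and 0.18). The call of *WARS1* rests on its brightest probe. It did not pass with sex in the model (limma, adjusted p = 0.0557) or with slide as a block (limma, adjusted p = 0.275). Under the settings of the closing section it passed in 9 of 35. Its other probes gave 0.06 and -0.63, the latter with an adjusted p of 4.92e-04 in the opposite direction, and the mean of its probes gave -0.09. *KARS1*, the lysine enzyme, was the only member that fell. It was at 5.83, 6.04 and 5.14 in BA and 6.25 and 6.07 in CH at 110 dpc, and at 5.20 and 5.52 in BA and 5.53, 5.78 and 5.95 in CH at 260 dpc. The stages overlapped and the difference was -0.36 ± 0.14 (limma, adjusted p = 0.0346). *NARS1*, *LARS1* and *QARS1* gave differences of 0.10 ± 0.12, 0.08 ± 0.09 and -0.03 ± 0.10, which did not pass the test.

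Among the mitochondrial enzymes *IARS2*, the isoleucine enzyme, stood out in size. It was at 4.62, 4.68 and 4.51 in BA and 4.81 and 4.69 in CH at 110 dpc. At 260 dpc it was at 5.64 and 5.61 in BA and 5.52, 5.81 and 5.99 in CH. The stages did not overlap and the breeds were alike in their rise, 1.02 ± 0.14 in each, with an averaged difference of 1.02 ± 0.10 (2.03-fold, limma adjusted p = 1.16e-07). Its 3 dimmer probes gave 0.91, 0.74 and 0.30. The other mitochondrial enzymes that rose did so by at most 0.35. *TARS2* (threonine) was between 3.02 and 3.57 at 110 dpc and at 3.48, 3.71, 3.76, 3.80 and 3.87 at 260 dpc, a difference of 0.35 ± 0.13. *RARS2* (arginine) was between 3.43 and 4.02 at 110 dpc and at 4.09, 4.28, 4.14, 4.12 and 4.10 at 260 dpc, a difference of 0.33 ± 0.10 with no overlap. *NARS2* (asparagine) was between 2.01 and 2.34 at 110 dpc and at 2.32, 2.55, 2.24, 2.47 and 2.61 at 260 dpc, a difference of 0.32 ± 0.12, and its other probes gave 0.15 and -0.40. *CARS2* (cysteine) was between 5.30 and 5.74 at 110 dpc and at 5.68, 5.69, 5.92, 6.05 and 6.12 at 260 dpc, a difference of 0.25 ± 0.09, and its other probe gave 0.83. The 6 that did not pass were *FARS2*, *WARS2*, *AARS2*, *HARS2*, *MARS2* and *SARS2*, with differences from -0.14 to 0.20. A second probe of *AARS2* gave 0.34 with an adjusted p of 0.00641.

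For 11 amino acids the enzymes of both compartments had a probe, with *FARSB* standing for the cytosolic phenylalanine enzyme. The cytosolic enzyme had the larger difference between 260 and 110 dpc in 8 of the 11. For serine the differences were 1.20 in the cytosol (*SARS1*) and -0.14 in mitochondria (*SARS2*), and for alanine 1.28 (*AARS1*) and 0.06 (*AARS2*). Isoleucine went the other way, with 0.37 for *IARS1* and 1.02 for *IARS2*. Asparagine (0.10 for *NARS1* and 0.32 for *NARS2*) and arginine (0.26 for *RARS1* and 0.33 for *RARS2*) were the other exceptions. These comparisons between lists are descriptions without a test.

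**Figure D2:**
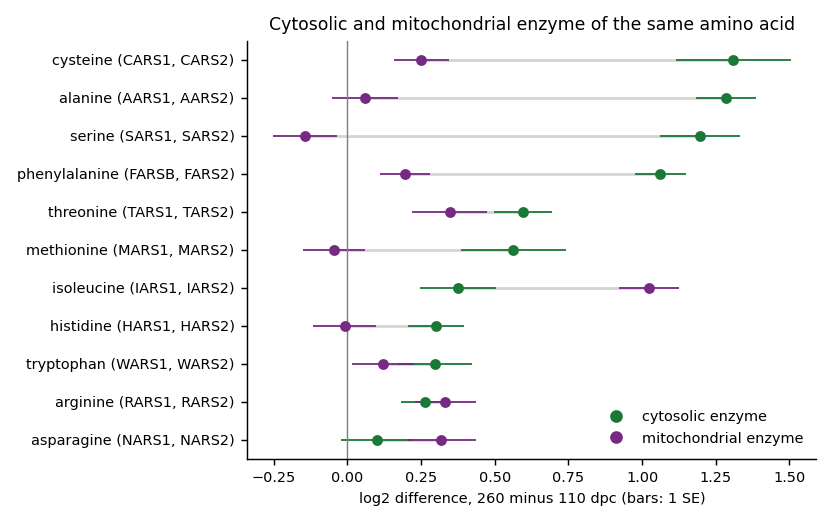
Difference between 260 and 110 dpc (log2, x axis, bars 1 SE) of the cytosolic and the mitochondrial enzyme for each of 11 amino acids. Serine, alanine, cysteine and phenylalanine show wide gaps with the cytosolic enzyme higher, and isoleucine shows a gap with the mitochondrial enzyme higher (0.37 against 1.02). *CARS1* is drawn from the fit of all probes.

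All 3 scaffold genes rose with the breeds averaged and in CH, and *AIMP1* and *AIMP2* rose in BA. *AIMP2* was at 4.07, 3.87 and 3.97 in BA and 4.36 and 4.30 in CH at 110 dpc, and at 5.18 and 5.27 in BA and 5.32, 5.32 and 5.47 in CH at 260 dpc. The difference was 1.15 ± 0.09 (2.22-fold, limma adjusted p = 1.05e-08), and its other probes gave 1.44 and 1.43. *AIMP1* rose by 0.67 ± 0.08 and *EEF1E1* by 0.51 ± 0.13. Over the 10 tested genes of the multi-synthetase complex, 7 rose and 1 (*KARS1*) fell, with differences from -0.36 to 1.15, compared with 33.8% and 31.5% of named genes.

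Most of the change came late. Between 110 and 180 dpc only *AARS1* rose (0.31 ± 0.10) and only *YARS1* fell (-0.48 ± 0.15), compared with 13.6% and 11.5% of named genes. Between 180 and 210 dpc *FARSB* (0.36 ± 0.08) and *AIMP2* (0.34 ± 0.09) rose and no member fell, compared with 4.85% and 4.98% of named genes. Between 210 and 260 dpc 17 of the 31 rose and none fell, compared with 25.4% and 21.6% of named genes. These 17 were 11 cytosolic enzymes, 3 mitochondrial enzymes (*IARS2*, *CARS2* and *NARS2*) and the 3 scaffold genes.

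In the last interval, among the cytosolic enzymes, *SARS1* rose by 0.93 ± 0.13 and *AARS1* by 0.92 ± 0.10. At 210 dpc *AARS1* had lain between 6.24 and 6.51 over 6 foetuses, with a median of 6.38, and *SARS1* between 4.94 and 5.28, with a median of 5.15. *GARS1* (0.75 ± 0.19), *MARS1* (0.70 ± 0.17), *TARS1* (0.65 ± 0.09), *FARSB* (0.62 ± 0.08), *YARS1* (0.60 ± 0.14) and *IARS1* (0.56 ± 0.12) followed. The scaffold gene *AIMP2* rose by 0.68 ± 0.09. In 10 of the 31 genes the 260 dpc foetuses lay above the 210 dpc foetuses without overlap, compared with 16.9% of named genes. *GARS1*, *MARS1*, *YARS1* and *IARS1* were not among the 10, since at least 1 BA foetus of 260 dpc lay within the range of 210 dpc.

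**Figure D3:**
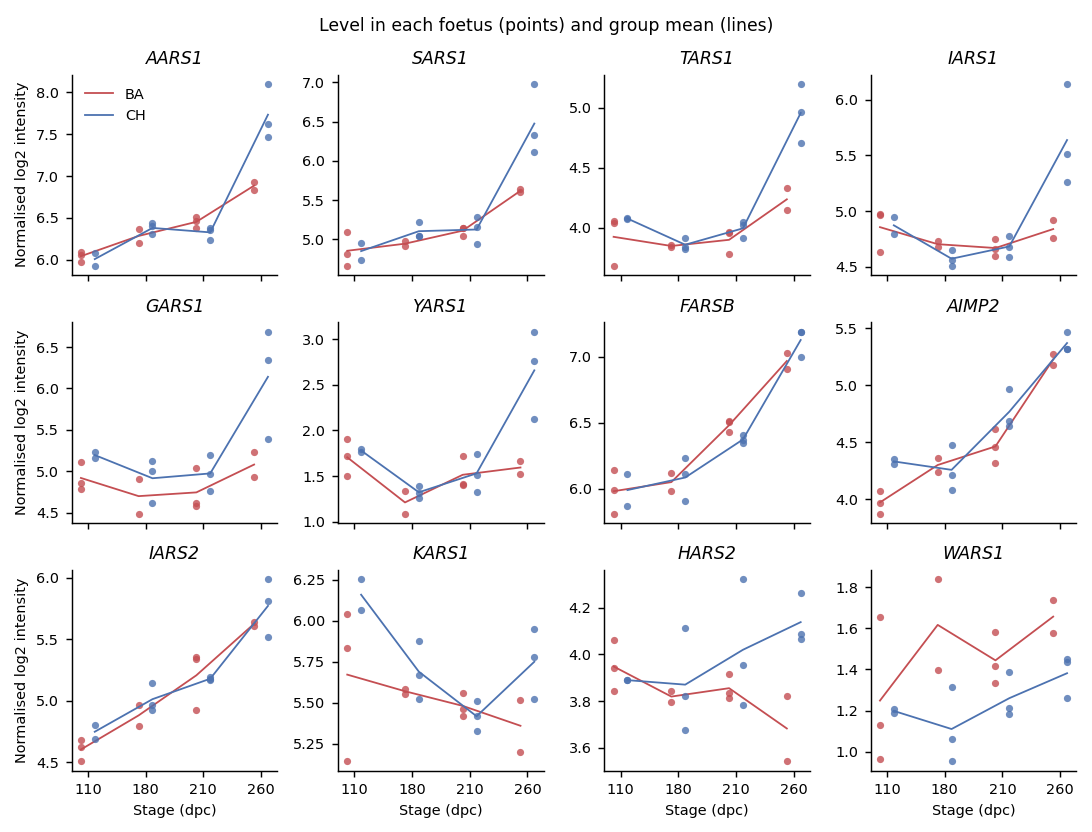
Normalised log2 intensity (y axis, a separate scale for each gene) of 12 genes in each foetus by stage (x axis, dpc), with BA and CH in separate colours and lines through the group means. For *AARS1*, *SARS1*, *TARS1*, *IARS1*, *GARS1* and *YARS1* the CH foetuses of 260 dpc lie above the BA foetuses, whereas for *FARSB*, *AIMP2* and *IARS2* the breeds rise together.

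Taken breed by breed, 8 of the 31 genes rose from 110 to 260 dpc in BA and 18 in CH, and none fell in either. Sex shifted in opposite directions between these stages. In BA replicates 1 and 3 of 110 dpc were male and both foetuses of 260 dpc were female. In CH both foetuses of 110 dpc were female and replicates 1 and 2 of 260 dpc were male. Breed and sex are thus mixed in the 2 counts, and the CH count was lower without these males, as given in the closing section. The shares of named genes that rose and fell were 28.6% and 25.5% in BA and 27.7% and 25.9% in CH. The BA count comprised *AARS1*, *SARS1*, *FARSB*, *HARS1*, *IARS2*, *RARS2*, *AIMP1* and *AIMP2*. *AARS1* rose by 0.84 ± 0.14 in BA and 1.73 ± 0.14 in CH. The rises of *SARS1* were 0.77 ± 0.19 and 1.63 ± 0.19. The differences of *YARS1* were -0.11 ± 0.21 in BA and 0.88 ± 0.21 in CH, and those of *IARS1* were -0.02 ± 0.18 and 0.77 ± 0.18. *MARS1* and *GARS1* gave 0.11 and 0.16 in BA and rose by 1.01 and 0.95 in CH. The test of the difference itself, the interaction of breed with 260 minus 110 dpc, passed for 0 of 31 members in limma, as for 0% of named genes. At an unadjusted p under 0.05 there were 9 members, 8 of them with the smaller rise in BA, compared with 7.28% of named genes. The lowest p was that of *AARS1* (-0.88, adjusted p = 0.56).

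At 260 dpc the breeds were compared directly. The study names *AARS1*, *SARS1*, *IARS1* and *GARS1* from these arrays at this stage, so their values here are not independent evidence. No member passed the adjusted threshold in limma, as for 0% of named genes. At an unadjusted p under 0.05 there were 12 members, of which 11 were lower in BA, compared with 5.7% of named genes in either direction. Of the 31 differences 25 were below 0, whereas 49.2% of named genes were above 0. The BA foetuses lay below the CH foetuses without overlap in 13 of the 31 genes, against 9.76% of named genes, and above them in 2 (*LARS1* and *WARS1*), against 8.7%. Of the 13, 8 were cytosolic enzymes, 3 mitochondrial enzymes and 2 scaffold genes. Of the scaffold genes, *AIMP2* was above 0 at its other probes (0.23 and 0.06). Among 21 members with several tested probes, 16 had the same sign at every probe in this comparison.

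The members with the lowest p at 260 dpc were *AARS1*, *TARS1*, *YARS1*, *SARS1* and *IARS1*, with *CARS1* (all-probe fit) and *GARS1* next. The values of *AARS1*, *SARS1* and *TARS1* in each foetus stand above, and each of the 3 had its lowest CH value in replicate 3. *AARS1* differed by -0.85 ± 0.14 (1.80-fold lower in BA, limma adjusted p = 0.111), *TARS1* by -0.72 ± 0.14 (adjusted p = 0.152) and *SARS1* by -0.86 ± 0.19 (adjusted p = 0.251). *YARS1*, the tyrosine enzyme, was at 1.67 and 1.52 in BA and at 2.76, 3.08 and 2.13 in CH, a difference of -1.06 ± 0.21 (adjusted p = 0.152). *IARS1*, the cytosolic isoleucine enzyme, was at 4.75 and 4.92 in BA and at 5.51, 6.15 and 5.26 in CH, a difference of -0.80 ± 0.18 (adjusted p = 0.251). *GARS1*, the glycine enzyme, was at 4.93 and 5.23 in BA and at 6.35, 6.69 and 5.38 in CH, a difference of -1.06 ± 0.28 (adjusted p = 0.385). *CARS1* gave -1.10 ± 0.28 (adjusted p = 0.484). *MARS1* gave -0.72 ± 0.25 at its brightest probe (adjusted p = 0.723) and -1.10 at the other (adjusted p = 0.119). Apart from *MARS1*, for which BA replicate 2 was above the female CH foetus, both BA values lay below the lowest CH value, which came from the female foetus.

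**Figure D4:**
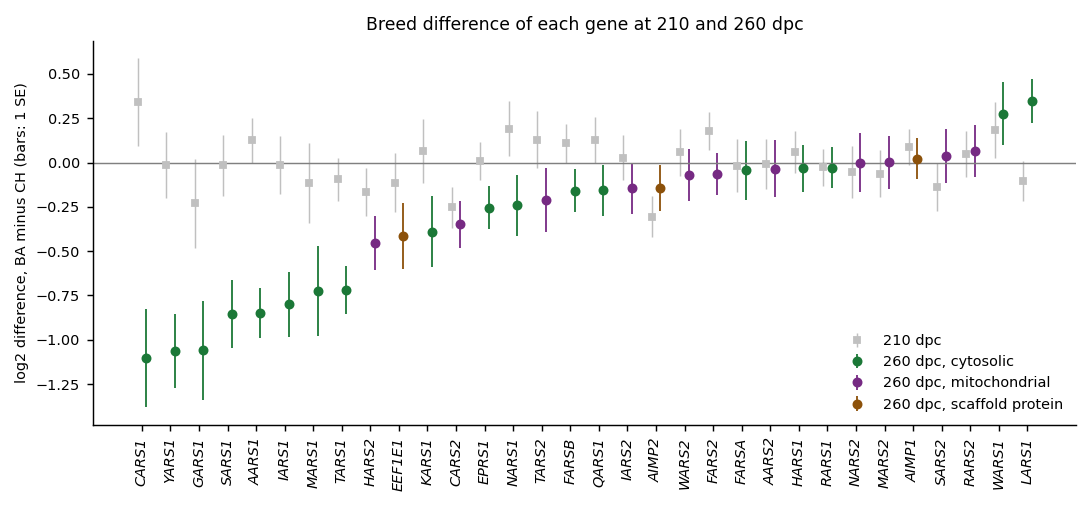
BA minus CH (log2, y axis, bars 1 SE) of each gene at 260 dpc (coloured by compartment) and at 210 dpc (grey squares), ordered by the value at 260 dpc. At 260 dpc 8 cytosolic enzymes, *CARS1* from the fit of all probes among them, lie at -0.72 or below. At 210 dpc none of the genes tested lies below -0.31.

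The median breed difference at 260 dpc was -0.06 for the 11 mitochondrial and -0.26 for the 17 cytosolic enzymes, a gap that was not tested. In female foetuses alone, and equally without the 2 male CH foetuses, the medians were alike at -0.222 and -0.224. With sire as a block they were -0.25 and -0.28, and without BA replicate 1 of 260 dpc the mitochondrial median was 0.0324. *HARS2*, the histidine enzyme, had the lowest p of the 11. It was at 3.54 and 3.82 in BA and at 4.26, 4.09 and 4.07 in CH, a difference of -0.46 ± 0.15 (limma, adjusted p = 0.665). *IARS2* and *AIMP2*, whose rises were among the largest, gave -0.15 ± 0.14 and -0.14 ± 0.13. *FARSB* gave -0.16 ± 0.12. In the 11 pairs of enzymes for the same amino acid, the cytosolic enzyme had the lower BA minus CH difference in 9.

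Values at 260 dpc also varied among the cytosolic enzymes. The synthetases listed as ATF4 targets numbered 13 genes, of which 11 were tested, and their median difference at 260 dpc was -0.72. At an unadjusted p under 0.05, 8 of them were lower in BA, compared with 5.7% of named genes in either direction. *LARS1* (0.35 ± 0.12) and *WARS1* (0.28 ± 0.18) were the members of that list above 0. The 6 other cytosolic enzymes tested, *FARSA*, *FARSB*, *HARS1*, *KARS1*, *QARS1* and *RARS1*, lay between -0.39 and -0.03. No test compared these lists.

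Breed and sex were unbalanced at 260 dpc, and 1 foetus decided the calls. Without CH replicate 3, the female, 6 members passed (*YARS1*, *AARS1*, *GARS1*, *TARS1*, *IARS1* and *SARS1*, adjusted p from 0.00202 to 0.0278), and without either of the male foetuses none did. Leaving out replicate 3 sets 2 female BA foetuses against 2 male CH foetuses, so breed and sex cannot be told apart there. The share of named genes that passed in that fit is not given here, so the 6 cannot be set against it. With sex in the model *AARS1* gave -0.80 (limma, adjusted p = 0.297), *YARS1* -0.84 and *GARS1* -0.74. In female foetuses alone *AARS1* gave -0.58, *YARS1* -0.53, *SARS1* -0.49, *TARS1* -0.47, *IARS1* -0.42 and *GARS1* -0.30, with adjusted p from 0.375 to 0.771. That comparison sets 2 BA foetuses against 1 CH foetus, which is assumed to vary like the other groups. On slide 4, which held a female of each breed at 260 dpc, BA minus CH was -0.63 for *AARS1*, -0.56 for *TARS1*, -0.50 for *IARS1*, -0.48 for *SARS1*, -0.46 for *YARS1* and -0.45 for *GARS1*. On slide 2, which held a female BA and a male CH foetus, the values were -0.69, -0.63, -0.59, -0.73, -1.24 and -1.12 in the same order. The CH foetus of slide 4 is that same female, so its values are not separate support. The sign was below 0 on both slides for these genes, and the size differed most for *YARS1* and *GARS1*.

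At the earlier stages no member passed the breed comparison in limma, and 2 of the 31 members at each stage had an unadjusted p under 0.05. That unadjusted share was 11.9%, 6.31% and 5.49% of named genes at 110, 180 and 210 dpc. The shares of named genes that passed the adjusted threshold were 0.24% at 110 dpc, 0.0252% at 180 dpc and 0% at 210 dpc. Averaged over the stages none of the 31 passed either, against 0.404% of named genes, although 10 had an unadjusted p under 0.05, of which 9 were lower in BA, compared with 12% of named genes in either direction. The lowest were *TARS1* (-0.24 ± 0.07, adjusted p = 0.129), *GARS1* (-0.45 ± 0.14, adjusted p = 0.17) and *YARS1* (-0.32 ± 0.10, adjusted p = 0.195). In a two-sided exact permutation test over the 20000 ways of assigning the breeds within stages, run for 7 members and not adjusted for that number, p was 0.00915 for *TARS1*, 0.0146 for *GARS1*, 0.0506 for *YARS1*, 0.0524 for *SARS1*, 0.136 for *AARS1* and 0.208 for *IARS1*. These members were picked with their breed differences in these data known.

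*WARS1*, the tryptophan enzyme, is known to be induced by interferon. It was higher in BA on average (0.25 ± 0.09, adjusted p = 0.226), with an exact permutation p of 0.0127. Its levels were 0.96, 1.13 and 1.66 in BA and 1.21 and 1.19 in CH at 110 dpc, and 1.84 and 1.40 in BA and 1.31, 0.95 and 1.06 in CH at 180 dpc. The mean level of 10 interferon-response genes was 0.16, 0.86 and 4.77 in the same BA foetuses and 0.01 and 0.33 in the CH foetuses of 110 dpc, and 2.25 and 1.57 in BA and 0.85, 0.41 and 0.68 in CH at 180 dpc. At 110 and 180 dpc the same BA foetus was the highest of its stage in both. So was BA replicate 1 at 260 dpc, with *WARS1* at 1.74 and an interferon mean of 1.40. At 210 dpc this was not so, since BA replicate 3 had the highest interferon mean (2.72) with *WARS1* at 1.42, and BA replicate 1 had the highest *WARS1* (1.58) with an interferon mean of 1.29. The summed linear level of these genes ranged from 27.4 to 1776 in BA at 110 dpc and from 27.9 to 28.8 in CH. Of the 10, 8 were well above background on every array, with *MX2* so on 10 arrays and *GBP4* on 17. The mean of 6 leukocyte markers was from 0.96 to 2.28 in BA and from 1.04 to 1.22 in CH at 110 dpc. The part of these cells or of interferon in *WARS1* was not tested.

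Neighbouring steps of translation gave a frame for these changes. From 110 to 260 dpc 33.8% of all named genes tested rose and 31.5% fell. Of 6 other charging factors tested 2 rose and none fell from 110 to 260 dpc (median 0.20). The largest difference, 1.11 ± 0.09, was that of *GATC*, a subunit of the mitochondrial amidotransferase that makes glutaminyl-tRNA. Of 7 genes of cytosolic elongation with a probe 6 were tested. Of these 3 rose, the most *EIF5A*, at 0.62 ± 0.10. The mean over all 7 was 7.323 in BA and 7.365 in CH at 110 dpc, and 9.005 and 9.082 at 260 dpc. The gene under the filter therefore rose by more than any of those tested. Of 10 tested genes of the eIF2 pathway, which brings initiator tRNA to the ribosome, 4 rose and 2 fell. *EIF2S2*, a subunit of eIF2, rose by 1.10 ± 0.09 and *EIF2AK2*, an interferon-induced kinase of eIF2, fell by 1.49 ± 0.44. The difference of *EIF2AK2* was -2.05 in BA and -0.93 in CH. At 110 dpc it was 1.32 higher in BA, which did not pass the test. BA replicate 3 of that stage had an interferon mean of 4.77, and its part was not tested.

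Genes of mitochondrial translation and respiration are given for comparison, beside the 33.8% of named genes that rose and the 31.5% that fell. Of 8 tested factors of mitochondrial translation 7 rose (median 0.52), among them *GFM1* (0.90 ± 0.08), an elongation factor. Of 15 tested genes of the respiratory chain and citrate cycle 15 rose (median 1.32), with the largest difference, 3.21, for *COX7A1*, a muscle isoform of a cytochrome oxidase subunit. The median of the 11 mitochondrial synthetases was 0.20, and no test compared the lists. None of these lists had a member that passed the breed comparison at 260 dpc.

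The amino acid response list, made of ATF4 and genes that it is known to control, was split in direction over the whole span with the breeds averaged. Of 19 tested genes 8 rose and 7 fell from 110 to 260 dpc (median -0.07), compared with 33.8% and 31.5% of named genes. The median was -0.27 in BA and 0.24 in CH. Between 210 and 260 dpc, when most synthetases rose, 7 of the 19 rose and none fell (median 0.19), compared with 25.4% and 21.6% of named genes. The largest difference of the list was 3.29, for *NUPR1*. *SLC3A2*, the heavy chain of amino acid transporters, rose by 1.43 ± 0.11 and *ATF4* by 0.70 ± 0.14. *ASNS*, asparagine synthetase, fell by 1.98 ± 0.27, *SLC7A5*, a transporter of large neutral amino acids, fell by 1.86 ± 0.28, and *PHGDH*, the first enzyme of serine synthesis, fell by 0.96 ± 0.23.

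Between the breeds at 260 dpc, 16 of the 19 were lower in BA in value. None passed the threshold in limma, and 10 had an unadjusted p under 0.05, each lower in BA, compared with 5.7% of named genes in either direction. *ASNS* differed by -1.66 ± 0.38 (adjusted p = 0.251), *PYCR1*, an enzyme of proline synthesis, by -1.44 ± 0.27 (adjusted p = 0.152) and *ATF4* by -0.65 ± 0.19 (adjusted p = 0.547). The mean of the 23 genes of the list with a probe was 3.23 and 3.07 in BA and 4.18, 4.16 and 3.33 in CH at 260 dpc. The 16 foetuses of earlier stages lay between 3.08 and 3.48. The 2 male CH foetuses of 260 dpc thus stood above all the others, and the 1 female CH foetus of that stage did not. The part of these genes in the difference of the synthetases was not tested.

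The mean over the 17 cytosolic synthetases gave a graded order at 260 dpc, with 4.34 and 4.43 in BA, 4.58 in the female CH foetus and 4.76 and 5.01 in the male CH foetuses. Earlier foetuses lay between 4.00 and 4.22. The mean over the 11 mitochondrial synthetases was 3.32 and 3.48 in BA, 3.60 in the female and 3.41 and 3.53 in the male CH foetuses, with earlier foetuses between 3.16 and 3.37. The mean of 3 measured proliferation markers fell in value from between 3.98 and 4.26 at 110 dpc to between 2.17 and 2.81 at 260 dpc, which is opposite in direction to the cytosolic synthetases. The part of proliferating cells in these changes was not tested.

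**Figure D5:**
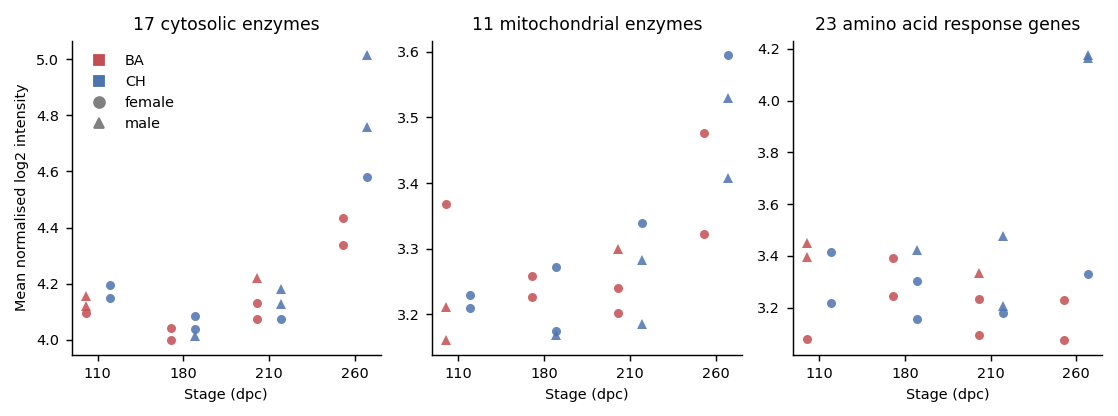
Mean normalised log2 intensity (y axis) in each foetus by stage (x axis, dpc) over 17 cytosolic enzymes, 11 mitochondrial enzymes and 23 amino acid response genes, with colours for breed and triangles for males. At 260 dpc the male CH foetuses (4.76 and 5.01 for the cytosolic enzymes, 4.18 and 4.16 for the response genes) stand highest in the first and last panels and not in the middle.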

How the data were processed

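RNA of 21 foetal muscles was hybridised to single-colour Agilent bovine arrays. The intensity values were made by the authors with Agilent Feature Extraction 10.7, per the labels. The authors' deposited log2 table held the log2 of these intensities without scaling between arrays (99.98% of values within 0.01).

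Control spots and 258 outlier spot values were left out. The log2 intensities were reduced by each array's 75th percentile (525 to 1174 intensity units), 2.69 was added, and a probe was tested if 7 or 8 of the 8 group means exceeded 0 (20132 of 43653 probes). Probes were named through their accessions and assembly ARS-UCD2.0. limma 3.58.1 in R 4.3.3 fitted 8 group means, with 13 residual and 3.79 prior degrees of freedom. On simulated data with 200 probes shifted by 1.5, 98.5% were recovered for 260 minus 110 dpc and 93% for BA minus CH at 260 dpc, with 10 and 13 false calls. That shift was larger than the difference of any member in either comparison. The recovered shares therefore do not tell how often differences of the size described here would be found. The number of arrays limits the precision.

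The members and lists were chosen with earlier results of these data known. Genes given in full were the 5 cytosolic and 5 mitochondrial enzymes with the largest called change, the 6 and 3 with the lowest p between breeds (260 dpc and averaged), *WARS1* and the 4 genes the study names. Replicate numbers did not pair the foetuses.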

Additional observations from a re-analysis of the deposited data

How the results depend on the processing

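Stage and averaged results were recomputed under 35 other settings, and breed results of single stages under 36, since arrays of that stage alone were fitted only there. Of these 21 left out 1 array, and 1, without both male CH foetuses of 260 dpc, was chosen after seeing the data. *AARS1*, *SARS1*, *FARSB*, *IARS2* and *AIMP2* rose from 110 to 260 dpc in each of the 35 settings that gave them a value. With the deposited value table, which is not scaled between arrays, 7 members passed for 260 minus 110 dpc (5 higher, 2 lower), 1 in BA, 3 in CH, 2 for 260 minus 210 dpc and 0 for each earlier interval, and the medians for 260 minus 110 dpc were -0.0157 (cytosolic) and -0.19 (mitochondrial). The signs reversed for *CARS2* (-0.14), *EPRS1* (-0.0287), *HARS1* (-0.0899), *IARS1* (-0.0157), *NARS2* (-0.0719), *RARS1* (-0.13), *RARS2* (-0.0574), *TARS2* (-0.0434), *WARS1* (-0.0938) and *YARS1* (-0.0067), and for *WARS1* also with the mean of its probes (-0.0933).

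Median scaling moved all named genes to 0.13, gave medians of 0.48 and 0.30, and passed 14 members in BA and 1 for 210 minus 180 dpc. The mitochondrial median was 0.11 with quantile normalization and 0.33 with slide as a block. Between breeds at 260 dpc it was -0.22 in females alone and without both males, and -0.25 with sire as a block. For 180 minus 110 dpc 0 members passed with normexp or no filter and 4 with the slide block. For 210 minus 180 dpc 1 passed with no filter and 0 in females alone, with slide and with sire. In females alone 14 passed for 260 minus 110 dpc and 11 in CH. Without both males 10 passed in CH and the cytosolic median was 0.25. The causes were not tested.

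Leaving out 1 array gave 13 to 22 members for 260 minus 110 dpc, 6 to 11 in BA, 12 to 19 in CH, 16 to 18 for 260 minus 210 dpc, and 0 to 3 for 180 minus 110 and for 210 minus 180 dpc. It gave 0 to 6 between breeds at 260 dpc and 0 to 1 averaged, the higher counts without CH replicate 3 of 260 dpc. The medians ranged from 0.29 to 0.44 (cytosolic) and 0.15 to 0.24 (mitochondrial) over stages, and from -0.35 to -0.23 and -0.15 to 0.0324 between breeds. With a replicate block 22 members passed for 260 minus 110 dpc and 0 between breeds at 260 dpc. Foetuses sharing a number correlated with a median of 0.027 over 66 pairs, against -0.003 over 126 others, and the numbers were not taken as pairs.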
